A study of Mus musculus with 16 samples.

Results

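The genes described here are the transcription factor NRF2, its inhibitor KEAP1 and 8 antioxidant enzymes or enzyme subunits, namely Nfe2l2 (the gene of NRF2), Keap1, Nqo1, Gclc, Gclm, Hmox1, Txnrd1, Srxn1, Gsr and Cat. They were taken by symbol from a list of the pathway, with no threshold on a measured value, and are 10 of the 22322 genes in each deposited table. Earlier results of these data were known when they were chosen. All 10 passed the filter on low counts in liver and in fat. The mice were obese from diet and were injected into the peritoneum every 2 days, with halofuginone at 100 µg/kg (label H100) or with vehicle (label HFD), until tissue was taken at 8 weeks. Halofuginone, a derivative of a plant alkaloid, blocks the enzyme that loads tRNA with proline and so sets off the cell's amino acid starvation response. For liver there were 5 libraries of each treatment and for white adipose tissue 3 of each, all made from polyadenylated RNA. The labels give no strain, sex, age or fat depot, and they do not say whether a liver and a fat library of the same number came from 1 animal. Nothing says that the libraries of a group came from separate mice, so p-values measure the spread between these samples, part of which may be technical.

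NRF2 is made continuously and is held down by KEAP1, an adaptor that passes it to a CUL3 ubiquitin ligase for destruction. Oxidants and reactive chemicals modify cysteines of KEAP1, NRF2 then builds up, pairs with a small MAF protein and binds antioxidant response elements in the promoters and enhancers of its target genes. The targets make glutathione, recycle glutathione and thioredoxin, reduce quinones and break down heme, and in liver they also cover much of the enzymatic handling of foreign chemicals. Because this control acts mainly on the NRF2 protein, the mRNA of Nfe2l2 is a poor gauge of it, and protein was not measured here.

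The promoters of the members were searched for the core of the antioxidant response element, the letters through which NRF2 is known to act. The table of RefSeq promoters, on GRCm38.p6, held 7 of the 10 members (Nfe2l2, Keap1, Nqo1, Gclm, Txnrd1, Srxn1 and Cat) in 9 windows, of which 3 belong to Txnrd1. In the 250 bases before each start, TGACNNNGC was searched on both strands, where it reads GCNNNGTCA on the other strand; its leading letters are shared with the AP-1 motif TGACTCA, so the 2 can overlap. A match lay in 3 of the 9 member windows, which belong to 3 of the 7 members, and in 3338 of 32851 windows in the whole table (10.2%). The stretches around these 3 matches are given below on the strand of the gene, with the match in capitals. They lie at chr2:75704855-75704913 (minus strand, match from 240 to 232 bases before the start) for Nfe2l2, chr3:122245383-122245471 (plus strand, 134 to 126 bases before) for Gclm and chr10:82859074-82859162 (plus strand, 92 to 84 bases before) for Txnrd1.
Nfe2l2: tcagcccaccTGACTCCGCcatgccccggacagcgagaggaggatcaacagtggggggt
Gclm: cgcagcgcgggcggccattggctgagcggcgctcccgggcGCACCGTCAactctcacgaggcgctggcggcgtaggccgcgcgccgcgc
Txnrd1: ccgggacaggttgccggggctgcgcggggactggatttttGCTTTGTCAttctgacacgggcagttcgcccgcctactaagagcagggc
The core of the C/EBP-ATF response element, TGATGNAA (TTNCATCA on the other strand), through which the amino acid response acts, lay in 1134 of the 32851 windows (3.45%) and in 0 of the 9 member windows. A match is a description of these letters and not a bound site.

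The liver libraries were 20309956 to 31980683 counts deep and the fat libraries 17070614 to 21387799, and no member had fewer than 51 counts in any library. Levels are given as CPM, that is, counts put on a common library size by TMM factors, and a gene is called changed where edgeR's quasi-likelihood test gives a Benjamini-Hochberg adjusted p under 0.05 over all genes tested. Halofuginone liver 1 stood apart from its group: the root mean square difference of its log2 CPM was 0.65 to the other halofuginone livers but 0.38 to the vehicle mean, while the other 4 halofuginone livers were at 0.32 to 0.50 and 0.58 to 0.78. Fits without it are given below, but it was picked out by these values, so their p-values are descriptive only. In fat, vehicle replicate 3 carried 63.7 CPM in summed epididymis genes, against 12.7 CPM in halofuginone replicate 1 and 0.277 to 0.558 CPM in the other 4. The 7 hepatocyte genes summed to 42193 to 135031 CPM in liver (Alb at 26739 to 98802 CPM) and to 153 to 1043 CPM in fat. The 7 adipocyte genes summed to 11925 to 24455 CPM in fat (Adipoq at 991 to 2543 CPM). In liver they summed to 69.7 to 146 CPM in vehicle and 23.5 to 73.6 CPM under halofuginone, with Lep at 0. The main markers thus matched the tissue labels, with low levels of the other tissue's genes in each.

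Per transcript length, catalase was by far the most abundant member in vehicle liver. On the deposited FPKM scale (which divides by gene length and by library size), Cat averaged 1100.4 ± 68.7 (SD, n = 5), followed by Gclm at 79.3 ± 10.2, Gclc at 65.4 ± 8.52 and Txnrd1 at 44.6 ± 4.23 FPKM. Nfe2l2 (26.9 ± 3.82 FPKM), Hmox1 (23.8 ± 7.36) and Gsr (20.9 ± 2.05) followed with overlapping ranges, as did Gsr and Srxn1 (15.8 ± 2.64), and the ranges of Gclm and Gclc overlapped too. Keap1 (12.3 ± 0.583) lay below every Srxn1 value and Nqo1 (2.63 ± 1.03) below every Keap1 value. Under halofuginone Gclc averaged 34.5 ± 21.7 FPKM, now below Txnrd1 at 46.9 ± 5.01, and Srxn1 at 25.0 ± 8.17 was now above Hmox1 at 18.7 ± 5.71 and Gsr at 19.3 ± 2.53, each with overlapping ranges. The fat table was normalized apart from the liver table, so levels are compared within it only. There Cat led at 467 ± 26.9 FPKM in vehicle (n = 3) with Hmox1 at 239 ± 204 (117, 124 and 474 in vehicle 1 to 3), and Nqo1 was again lowest at 4.66 ± 2.16.

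The first comparison asked how halofuginone changed the members in liver. The mRNAs of catalase and the catalytic subunit of glutamate-cysteine ligase fell to about the same extent, while those of all other members did not pass the test. Of the 10 members 2 were called lower and 0 higher, where 10.5% of the 12311 genes tested were called lower and 12.7% higher. The median log2 fold change of the members was -0.21 and that of all genes 0.02. Scaling by library size alone moved the median of all genes by 0.16 and turned the calls to 2789 higher and 838 lower (1558 and 1292 with TMM), so all liver changes are relative to the TMM scaling. A bulk sample cannot show whether fewer cells of a type or less RNA per cell lies behind a lower value.

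**Figure D1:**
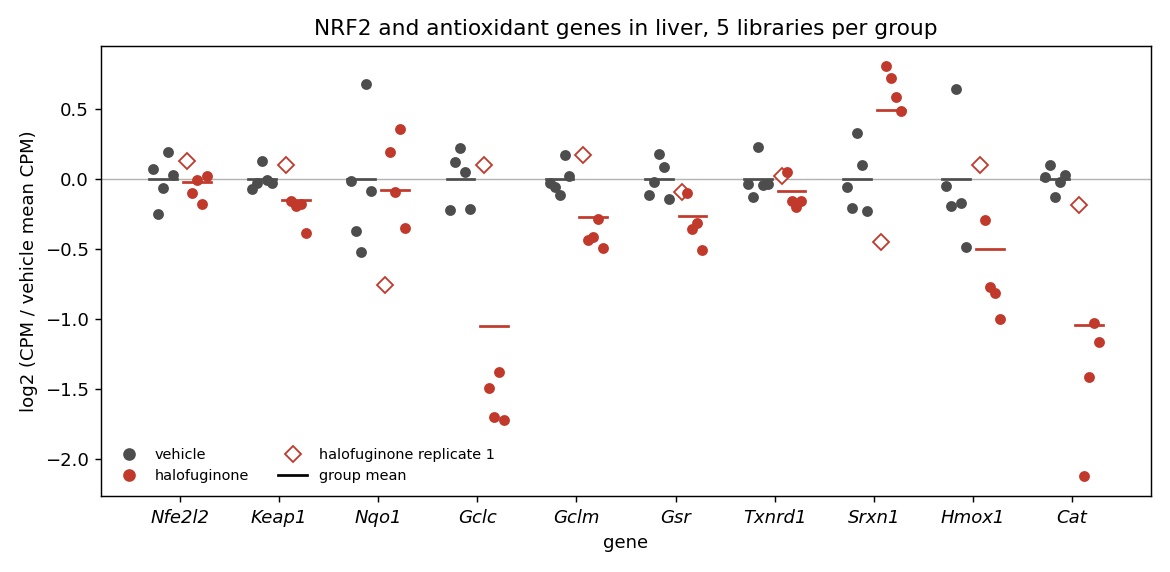
Level of the 10 members in each liver library as log2 of CPM over the vehicle mean (vertical axis), with vehicle in grey, halofuginone in red, halofuginone replicate 1 as an open diamond and bars at the log2 of the group means. The filled red points of Gclc lie between 71.5 and 90.8 CPM and those of Cat between 697 and 1484 CPM, while the diamond lies close to the vehicle points (253 and 2670.0 CPM).

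The 2 regulators were not called. Nfe2l2 (ENSMUSG00000015839) measured 73.3, 58.7, 66.8, 79.9 and 71.4 CPM in vehicle livers 1 to 5 and 76.5, 65.3, 69.6, 61.7 and 70.8 CPM in halofuginone livers 1 to 5. All 5 halofuginone values lay inside the vehicle range, and the log2 fold change was -0.03 (SE 0.10, adjusted p = 0.868), positive at 0.13 under library size alone. Keap1 (ENSMUSG00000003308) measured 38.8, 40.1, 44.7, 40.7 and 40.1 CPM in vehicle and 43.8, 36.6, 35.7, 36.0 and 31.2 CPM under halofuginone. Halofuginone livers 2 to 5 were below every vehicle liver and replicate 1 was inside their range, which gave a log2 fold change of -0.16 (SE 0.09, adjusted p = 0.242). Replicate 1 lay near vehicle over all genes. The share of all genes with such a pattern, here and for the genes below, was not counted.

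Glutathione synthesis starts with glutamate-cysteine ligase, which joins glutamate to cysteine and consists of the catalytic subunit GCLC and the modifier GCLM. Gclc (ENSMUSG00000032350) measured 202, 257, 276, 245 and 203 CPM in vehicle and 253, 83.9, 72.5, 90.8 and 71.5 CPM under halofuginone. Replicates 2 to 5 were all far below the lowest vehicle liver and replicate 1 was among the vehicle values. The mean went from 236 ± 32.8 to 114 ± 77.7 CPM (SD, n = 5 each), a fall by 1.05 on the log2 scale (SE 0.33, adjusted p = 0.0418). Without halofuginone liver 1 the log2 fold change was -1.59 (SE 0.13, adjusted p = 1.17e-05). Leaving out any other single liver kept the direction, at -1.10 to -0.92, but ended the call, with adjusted p from 0.0616 to 0.100.

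The partner subunit moved less. Gclm (ENSMUSG00000028124) measured 154, 151, 145, 177 and 159 CPM in vehicle and 177, 116, 118, 129 and 112 CPM under halofuginone. Again replicates 2 to 5 were below every vehicle liver and replicate 1 was within the vehicle range, and the log2 fold change was -0.27 (SE 0.13, adjusted p = 0.152). Gsr (ENSMUSG00000031584), the enzyme that returns oxidized glutathione to its reduced form, measured 54.3, 57.8, 66.6, 62.3 and 53.2 CPM in vehicle and 55.1, 54.9, 45.9, 47.2 and 41.4 CPM under halofuginone. Only replicates 3 to 5 were below the vehicle range, and its log2 fold change of -0.27 (SE 0.10, adjusted p = 0.0834) was not called.

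In the thioredoxin arm neither member was called with TMM scaling and every library. Txnrd1 (ENSMUSG00000020250), the cytosolic reductase of thioredoxin, measured 135, 127, 162, 134 and 135 CPM in vehicle and 141, 143, 124, 121 and 124 CPM under halofuginone. The groups overlapped, and the log2 fold change of -0.09 (SE 0.10, adjusted p = 0.551) was positive at 0.07 under library size alone. Srxn1 (ENSMUSG00000032802), which rescues over-oxidized peroxiredoxins, was the only member above vehicle in most halofuginone livers: it measured 44.9, 40.5, 58.7, 50.3 and 40.0 CPM in vehicle and 34.3, 81.7, 77.1, 70.1 and 65.5 CPM under halofuginone. Replicates 2 to 5 exceeded every vehicle liver and replicate 1 was below them all, so the log2 fold change of 0.49 (SE 0.21) had an adjusted p of 0.103. Without replicate 1 it was 0.63 (SE 0.12, adjusted p = 0.0022), and under library size alone, with every library, it was called at 0.66 (adjusted p = 0.0450).

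Nqo1 and Hmox1 are the members most often used as readouts of NRF2 activity, and neither was called. Nqo1 (ENSMUSG00000003849), a quinone reductase, was scarce: 4.24, 3.31, 2.98, 6.83 and 4.03 CPM in vehicle and 2.53, 4.88, 4.01, 5.48 and 3.35 CPM under halofuginone. Its groups overlapped, and the log2 fold change of -0.08 (SE 0.26, adjusted p = 0.842) was positive at 0.07 under library size alone. Hmox1 (ENSMUSG00000005413), which opens the heme ring and releases iron, measured 38.0, 34.6, 61.7, 35.0 and 28.2 CPM in vehicle and 42.2, 32.1, 23.1, 22.4 and 19.7 CPM under halofuginone. Replicates 3 to 5 were below the vehicle range, and the log2 fold change was -0.50 (SE 0.24, adjusted p = 0.151).

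Catalase, the peroxisomal enzyme that splits hydrogen peroxide, showed the other called change. Cat (ENSMUSG00000027187) measured 3063, 3254, 2771, 2987 and 3097 CPM in vehicle and 2670.0, 697, 1136, 1484 and 1354 CPM under halofuginone. All 5 halofuginone livers were below the lowest vehicle liver, replicate 1 by a small margin, and Cat was the only member whose groups did not overlap, where 6.55% of all genes did so downward and 5.13% upward. The mean went from 3034 ± 177 to 1468 ± 735 CPM (SD, n = 5 each), a fall by 1.05 on the log2 scale (SE 0.29, adjusted p = 0.0274). Without halofuginone liver 1 the log2 fold change was -1.40 (SE 0.21, adjusted p = 0.000485). The call was lost, at -1.06 to -0.96 and adjusted p from 0.0516 to 0.0722, when vehicle 1, 2, 4 or 5 or halofuginone 3, 4 or 5 was left out.

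The fit without halofuginone liver 1 was singled out because that library lay near vehicle, a choice that by itself favours larger differences and more calls. In it 7 of the 10 members were called, 6 lower and 1 higher, where 21.6% of 12422 genes were called lower and 21.2% higher. Beside Gclc, Cat and Srxn1 these were Hmox1 (log2 fold change -0.72, adjusted p = 0.0228), Gclm (-0.43, adjusted p = 0.00229), Gsr (-0.34, adjusted p = 0.0196) and Keap1 (-0.25, adjusted p = 0.0219). Nfe2l2, Nqo1 and Txnrd1 were not called with or without that library. Summed hepatocyte markers moved with these falls: they reached 122942 to 135031 CPM in vehicle, 115400 CPM in halofuginone liver 1 and 42193 to 94024 CPM in halofuginone livers 2 to 5. Of the 7 hepatocyte genes Ttr and Hnf4a were called lower, none was called higher, and their part in the members' falls was not tested. The 9 macrophage and Kupffer cell genes summed to 344 to 524 CPM in vehicle and 358 to 711 CPM under halofuginone, with 1 gene, Cd163, called higher and 0 called lower. The highest of these sums was that of halofuginone liver 1.

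**Figure D2:**
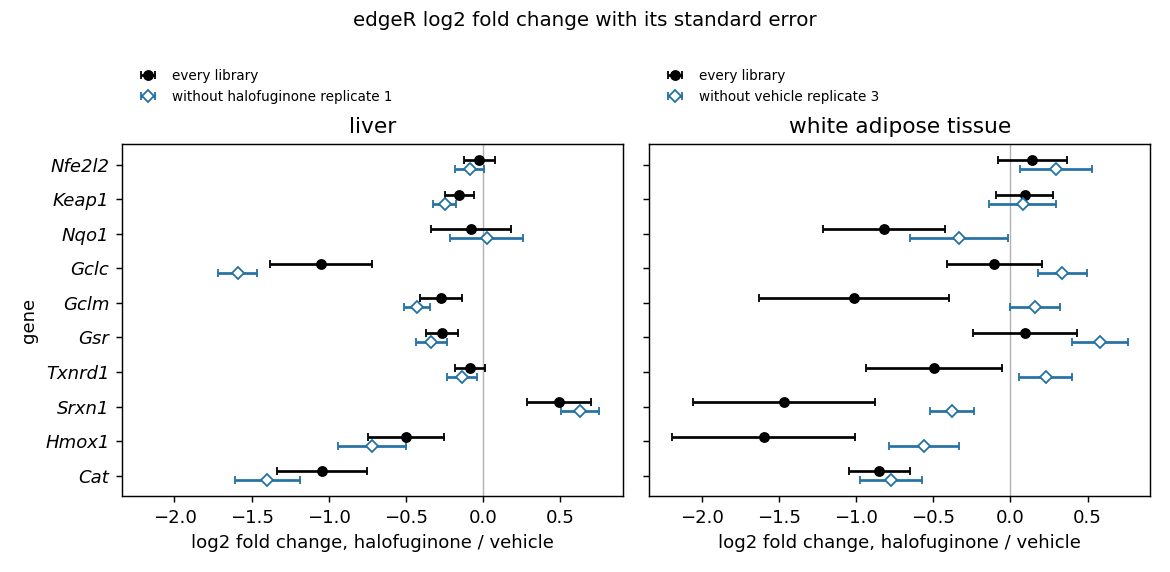
edgeR log2 fold change (halofuginone over vehicle, horizontal axis) of each member with its standard error, in liver (left) and white adipose tissue (right), with every library in black and without halofuginone liver 1 or vehicle fat 3 in blue. In liver Gclc goes from -1.05 to -1.59 and Cat from -1.05 to -1.40 without the library, and in fat Hmox1 goes from -1.60 to -0.56 and Gclm from -1.01 to 0.16.

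The genes whose liver profile was closest to the 2 called members were found among 8816 genes with at least 5 CPM, by the root mean square difference of mean-centred log2 CPM over the 10 livers. For Gclc they were Stom (0.15), Tmem140 (0.19) and Lima1 (0.20), with log2 fold changes of -1.06, -0.85 and -0.91. For Cat they included Macrod1 (0.12) and the fatty acid binding protein gene Fabp2 (0.13), with log2 fold changes of -1.18 and -0.97. These likenesses include the position of halofuginone liver 1 next to vehicle, which many genes share.

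Wider lists of the pathway were then read in the same liver fit. They too were chosen with earlier results of these data known, so their counts beside the shares of all genes are descriptive. The lists hold 98 genes beside the members, of which Prdx1 and Slc7a11 stand in more than 1 list and are counted once in the totals. In liver 93 of them passed the filter, and 22 were called lower and 4 higher, beside the 10.5% and 12.7% of all genes given above. Their median log2 fold change was -0.29. Under library size alone the split was 16 lower and 12 higher, where 838 and 2789 of all 12311 genes were. Without halofuginone liver 1 it was 38 lower and 12 higher, where 21.6% and 21.2% of all 12422 genes were. None of the 13 tested partners and regulators of NRF2, such as Bach1, Mafg and Sqstm1, was called in either direction, and 1 of them had an unadjusted p under 0.05. Their median was 0.00. The smallest p-values there were those of Dpp3, a KEAP1-binding peptidase, at log2 0.40 (adjusted p = 0.0581), and Btrc, a ubiquitin ligase subunit that can also destroy NRF2, at 0.33 (adjusted p = 0.142).

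Among the other NRF2 targets, 12 of the 28 tested were called lower and 2 higher (10.5% and 12.7% over all genes), with a median of -0.62. The falls were led by glutathione S-transferases, which attach glutathione to foreign chemicals. Gsta3 measured 1018, 988, 656, 1103 and 1187 CPM in vehicle and 726, 105, 148, 378 and 259 CPM under halofuginone. Replicates 2 to 5 lay far below the vehicle range and replicate 1 inside it, and the log2 fold change was -1.62 (SE 0.45, adjusted p = 0.0269). Gsta4 went from 26.5 ± 6.29 to 6.71 ± 7.19 CPM (log2 -2.004, adjusted p = 0.0217) and Gsta2 from 7.98 ± 4.90 to 1.28 ± 1.60 CPM (log2 -2.71, adjusted p = 0.0185; SD, n = 5 each). The class holds near-identical paralogs, so reads of Gsta1 and Gsta2 in particular may have been split. Also called lower were the transporter gene Abcc3 (-1.60), Aox1, Blvrb, Entpd5, Gsta1, Gstm2, Gstm3, Prdx1 and Ugdh. The 2 called higher were Htatip2 (0.50, adjusted p = 0.0308) and Ugt2b35 (0.42, adjusted p = 0.0369), the latter from a family of similar copies.

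**Figure D3:**
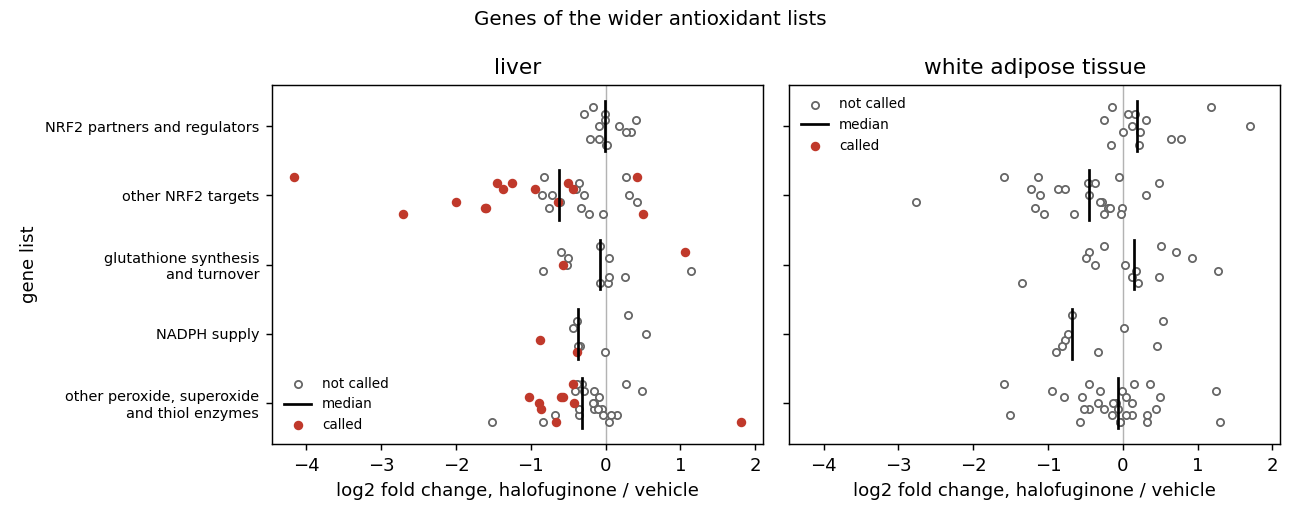
Log2 fold change (halofuginone over vehicle, horizontal axis) of each tested gene in the 5 wider lists in liver (left) and white adipose tissue (right), with called genes filled and a bar at the median of each list. In liver the other NRF2 targets have the lowest median (-0.62) and 12 called falls, and no gene is filled in fat.

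Glutathione itself depends on further genes. Of 13 tested genes of its synthesis and turnover 1 was called higher and 1 lower, with a median of -0.08. Over all genes of this fit 12.7% were called higher and 10.5% lower, so these 2 calls do not set the list apart. Slc3a2, the heavy chain shared by several amino acid carriers including the cystine importer, measured 37.9, 37.6, 40.7, 42.8 and 39.5 CPM in vehicle and 38.7, 87.3, 87.8, 104 and 95.6 CPM under halofuginone. Replicates 2 to 5 were well above every vehicle liver and replicate 1 was among them, with a log2 fold change of 1.06 (SE 0.21, adjusted p = 0.00945). Gss, which adds glycine in the last step of synthesis, fell by 0.57 on the log2 scale (SE 0.14, adjusted p = 0.0173), from 66.2 ± 7.09 to 44.6 ± 8.89 CPM, with all 5 halofuginone livers below the vehicle range. Of the 9 genes that supply NADPH, the reducing power used by Gsr and Txnrd1, 2 were called lower and 0 higher, with a median of -0.37. They were Idh1 (278 ± 48.7 to 152 ± 53.0 CPM, log2 -0.87, adjusted p = 0.0173) and Taldo1 (68.8 ± 5.35 to 52.6 ± 2.82 CPM, log2 -0.39, adjusted p = 0.0112).

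Of the 31 other peroxide, superoxide and thiol enzymes 8 were called lower and 1 higher (10.5% and 12.7% over all genes), with a median of -0.32. Gpx1, which uses glutathione to reduce hydrogen peroxide, measured 1519, 1694, 1620.5, 1719.8 and 1559 CPM in vehicle and 1388, 485, 771, 745 and 602 CPM under halofuginone. Its order resembles that of Cat, with all halofuginone livers below vehicle and replicate 1 the nearest, and the log2 fold change was -1.02 (SE 0.25, adjusted p = 0.0175). The methionine sulfoxide reductases Msra and Msrb1, which repair oxidized methionine, were at log2 -0.86 (adjusted p = 0.00268) and -0.89 (adjusted p = 0.0202), and Sod3, Prdx1, Prdx2, Prdx6 and Glrx5 were the other called falls. The single rise was Sesn2, a stress-induced gene that ATF4 also drives: 9.50, 6.41, 9.04, 7.51 and 7.87 CPM in vehicle and 12.0, 29.3, 33.3, 27.5 and 39.1 CPM under halofuginone. All 5 halofuginone livers exceeded the vehicle range, with a log2 fold change of 1.81 (SE 0.26, adjusted p = 0.00326).

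The next comparison asked the same in white adipose tissue. None of the 14030 genes tested (0%) was called by edgeR, and so none of the members. At an unadjusted p under 0.05 there were 1881 genes (13.4%) and 3 members, Cat, Hmox1 and Srxn1, all lower under halofuginone. DESeq2 called 723 genes, 235 higher and 488 lower, and 1 member, Cat. In 3 members all halofuginone values were below all vehicle values, the same 3, and in 0 members all were above, where 10.4% of all genes did not overlap downward and 10.2% upward. The median log2 fold change of the members was -0.66 and that of all genes 0.01, but without vehicle replicate 3 the members' median turned to 0.12 (all genes 0.03). Without that library 3 members had an unadjusted p under 0.05 in the lower direction and 1, Gsr, in the higher, where 7.83% and 4.61% of 14242 genes did. Vehicle replicate 3 was the highest vehicle library for every member but Keap1, so leaving it out by itself raises their fold changes. The p-values of fits without it, here and below, are descriptive only.

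**Figure D4:**
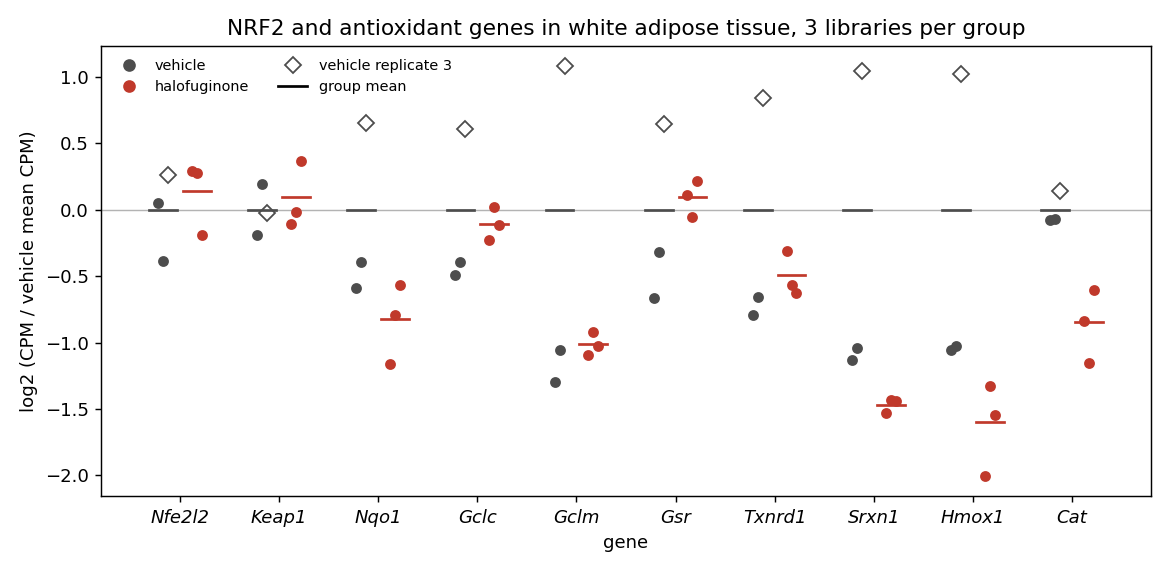
Level of the 10 members in each white adipose tissue library as log2 of CPM over the vehicle mean (vertical axis), with vehicle in grey, halofuginone in red, vehicle replicate 3 as an open diamond and bars at the log2 of the group means. The diamond is the highest point for Nqo1, Gclc, Gclm, Gsr, Txnrd1, Srxn1, Hmox1 and Cat, reaching 792 CPM for Hmox1 against 192 CPM in the next library.

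Catalase was lower in fat as well. Cat measured 1182, 1191 and 1376 CPM in vehicle fat 1 to 3 and 698, 561 and 823 CPM in halofuginone fat 1 to 3. The groups were separated by a wide gap. The log2 fold change was -0.85 (SE 0.20), with an unadjusted p of 0.0038 and an adjusted p of 0.183, and DESeq2 gave an adjusted p of 0.00194. Over the 14 alternatives tried the value ran from -0.97 to -0.68 and the adjusted p from 0.00194 to 0.547.

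Hmox1 measured 188, 192 and 792 CPM in vehicle and 97.5, 156 and 134 CPM under halofuginone. Srxn1 measured 81.0, 86.2 and 365 CPM in vehicle and 61.3, 65.8 and 65.5 CPM under halofuginone. In both genes the halofuginone values were below all vehicle values, but vehicle replicate 3 was about 4 times as high as the other vehicle libraries (4.16 and 4.37 times their mean). The log2 fold changes were -1.60 (SE 0.59, adjusted p = 0.327) and -1.47 (SE 0.59, adjusted p = 0.353), and without vehicle replicate 3 they were -0.56 (adjusted p = 0.394) and -0.38 (adjusted p = 0.363).

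The glutathione and thioredoxin reductase genes overlapped between the groups, with vehicle replicate 3 above every other fat library. Gclm measured 39.6, 46.9 and 206 CPM in vehicle and 45.6, 51.4 and 47.9 CPM under halofuginone, so its log2 fold change of -1.01 (SE 0.62, adjusted p = 0.533) became 0.16 without vehicle replicate 3. Txnrd1 measured 105, 116 and 327 CPM in vehicle and 148, 123 and 119 CPM under halofuginone, with -0.49 (SE 0.44, adjusted p = 0.684) becoming 0.23. In both genes the sign of the difference rested on that 1 vehicle library, and for Txnrd1 every halofuginone library lay above vehicle 1 and 2. Gclc measured 29.0, 31.1 and 62.2 CPM in vehicle and 34.8, 41.2 and 37.6 CPM under halofuginone (log2 -0.10, SE 0.31, adjusted p = 0.919), and 0.34 without it. Gsr measured 51.4, 65.3 and 128 CPM in vehicle and 87.9, 78.6 and 94.6 CPM under halofuginone (0.10, SE 0.34, adjusted p = 0.935), and 0.58 without it. For Gclc and Gsr every halofuginone library lay above vehicle 1 and 2 and below vehicle 3.

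Nqo1 was scarce in fat too, at 4.98, 5.71 and 11.8 CPM in vehicle and 3.34, 4.32 and 5.05 CPM under halofuginone (log2 -0.82, SE 0.39, adjusted p = 0.423), and -0.33 (adjusted p = 0.685) without vehicle replicate 3. The regulators again showed no separation. Nfe2l2 measured 177, 131 and 204 CPM in vehicle and 209, 206 and 149.8 CPM under halofuginone (0.14, SE 0.23, adjusted p = 0.830). Keap1 measured 43.6, 57.0 and 49.0 CPM in vehicle and 46.2, 49.2 and 64.2 CPM under halofuginone (0.09, SE 0.19, adjusted p = 0.872).

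Vehicle fat 3 was the highest vehicle library for every member but Keap1. Relative to the mean of vehicle 1 and 2 it was higher 4.76 times for Gclm, 4.37 for Srxn1, 4.16 for Hmox1, 2.95 for Txnrd1, 2.2 for Nqo1, 2.19 for Gsr and 2.07 for Gclc, whereas Nfe2l2 (1.33), Cat (1.16) and Keap1 (0.973) stood near the other libraries. A ratio of at least 2, a limit set after these values were seen, was met by 7 of the 10 members and by 966 of 14030 genes (6.89%), whose median ratio was 1.00. The other NRF2 targets of the wider list summed to 25070 CPM there, against 10773 to 13171 CPM in the other 5 fat libraries. In the same library the 6 epididymis genes summed to 63.7 CPM, against 0.480 and 0.277 CPM in vehicle 1 and 2. Under halofuginone they summed to 12.7, 0.558 and 0.473 CPM. The 9 macrophage genes summed to 8713 CPM in vehicle 3, against 4815 and 4046 CPM in vehicle 1 and 2 and 2703 to 3015 CPM under halofuginone. The 7 adipocyte genes summed to 11925 CPM there and to 19968 to 24455 CPM in the others, and the 5 endothelial genes to 476 CPM against 978 to 1400.1 CPM. Of the macrophage genes 7 were tested, 0 were called, 6 had an unadjusted p under 0.05 in the lower direction, and the Kupffer cell gene Clec4f was at 0 in all halofuginone fat libraries and at most 0.060 CPM in vehicle. The 6 fibroblast and stellate cell genes, of which Lrat was near 0, summed to 1281, 1373 and 1008 CPM in vehicle. Under halofuginone their sums were 583, 629 and 719 CPM, lower without overlap. Of the fibroblast and stellate cell genes 5 were tested, 0 were called and 2 had an unadjusted p under 0.05, both lower. The 5 skeletal muscle genes also summed lower without overlap (88.7 to 172 CPM against 51.1 to 59.5 CPM), as did the macrophage genes. The part of these cell types and of epididymis in the members' values was not tested.

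**Figure D5:**
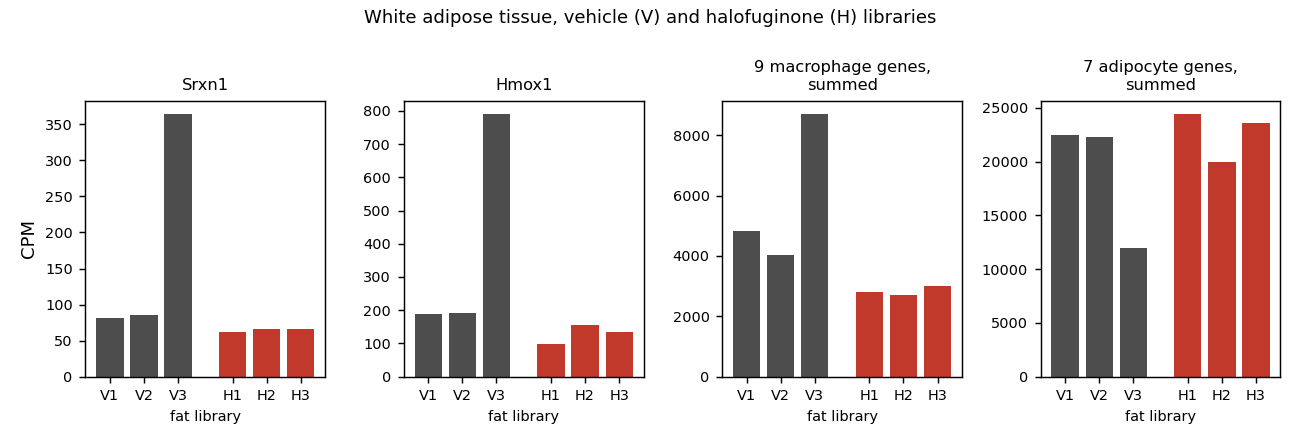
CPM of Srxn1, Hmox1, the sum of 9 macrophage genes and the sum of 7 adipocyte genes in each fat library, with vehicle (V1 to V3) in grey and halofuginone (H1 to H3) in red. V3 is highest for Srxn1 (365), Hmox1 (792) and the macrophage sum (8713) and lowest for the adipocyte sum (11925).

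Of the 98 pathway genes 89 were tested in fat. None was called by edgeR, and 22 had an unadjusted p under 0.05 in the lower and 6 in the higher direction. Over all genes tested the shares were 7.91% lower and 5.5% higher. Without vehicle replicate 3 the pathway counts were 20 lower and 5 higher. By list, with every library and with Prdx1 counted in both of its lists, these were 9 lower and 0 higher of 23 other NRF2 targets, 5 and 0 of 9 NADPH genes, 9 and 3 of 31 peroxide, superoxide and thiol enzymes, 0 and 1 of 14 glutathione genes and 0 and 2 of 14 partners and regulators. The list medians were -0.45, -0.68, -0.06, 0.15 and 0.19 in that order. In the NADPH list Idh1 measured 292, 284 and 318 CPM in vehicle and 143, 187 and 192 CPM under halofuginone (log2 -0.77, adjusted p = 0.171), and Tkt, a transketolase, 334, 430.2 and 405 CPM and 191, 202 and 274 CPM (-0.81, adjusted p = 0.208). Neither gene overlapped between groups, but both were picked by the smallest p-values of their list. Over all genes tested 10.4% did not overlap downward. In both genes vehicle replicate 3 was close to the other vehicle libraries.

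Further genes with the smallest p-values of their list did not overlap between the fat groups either. They were Sesn3 (63.8 ± 16.3 to 22.4 ± 5.11 CPM, n = 3 each, log2 -1.51, adjusted p = 0.129), Ephx1, an epoxide hydrolase (-1.18, adjusted p = 0.162), Msrb2 (-0.79, adjusted p = 0.165) and Abcc3 (-1.06, adjusted p = 0.177). On the higher side stood Maff, a small MAF partner of NRF2 (22.1, 26.0 and 21.9 CPM in vehicle, 77.3, 46.9 and 34.7 CPM under halofuginone, log2 1.18, adjusted p = 0.210), and its competitor Bach2 (0.78, adjusted p = 0.339). Chac1, a glutathione-degrading enzyme of the ATF4 response, measured 7.73, 10.5 and 5.54 CPM in vehicle and 27.5, 16.7 and 13.0 CPM under halofuginone (1.27, adjusted p = 0.231), and Ggct, also of glutathione turnover, was at 0.51 (adjusted p = 0.390). None of these passed the threshold. They were picked by p-value in the same libraries, so their lack of overlap adds no support. Over all genes tested 10.4% did not overlap downward and 10.2% upward.

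The last comparison tested whether the drug effect differed between the tissues, taking the log2 fold change in fat less that in liver from 1 fit of all 16 libraries taken as independent. None of the 10 members was called, and 141 of 14853 genes (0.949%) were. With every library the largest differences were those of Srxn1, at -1.96 (SE 0.56, adjusted p = 0.102), with 0.49 in liver and -1.47 in fat, Hmox1, at -1.10 (SE 0.57, adjusted p = 0.377), and Gclc, at 0.94 (SE 0.51, adjusted p = 0.393). For Cat, at -1.05 in liver and -0.85 in fat, the difference was 0.19 (SE 0.42, adjusted p = 0.891). Vehicle fat 3 weighed on these: without it the differences were -0.91 for Srxn1 (adjusted p = 0.215), -0.10 for Hmox1 (adjusted p = 0.962) and 1.35 for Gclc (adjusted p = 0.238), and 0 members were called. Without halofuginone liver 1, and with vehicle fat 3 kept, the difference was called for 1053 of 14902 genes. Among them were Srxn1 (-2.12, adjusted p = 0.0262) and Gclc (1.45, adjusted p = 0.0104). Halofuginone liver 1 was picked out by its values, so these p-values are descriptive only. With every library a difference was not detectable in any member at this spread.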

How the data were processed

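For each tissue the authors deposited a table in which every library has its counts and its FPKM, per the file headers. The submitters' processing notes name fastp 0.18.0, Bowtie2 2.2.8, HISAT2, StringTie 1.3.1, RSEM and the build mm39, with no role or order; the counting program, annotation and strand are not given in the sources used here, so reads of near-identical, overlapping or antisense genes may be split. The deposited counts are whole numbers and may be rounded estimates. A table of gene names gave symbols for 22267 of the 22322 identifiers. Titles placed all 16 libraries, and 0 columns stayed unmapped.

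edgeR 4.0.16 (R 4.3.3) was run separately per tissue with filterByExpr, TMM scaling and a two-sided glmQLFTest after glmQLFit, with Benjamini-Hochberg adjustment. The script was tested on simulated data. The SE is the absolute log2 fold change over the square root of F. FPKM served for levels and for an alternative in limma 3.58.1 (log2 of FPKM plus 1); others were DESeq2 1.42.0, other scalings and filters, a replicate block, 1 fit of all libraries and leaving out each library. No pair of libraries within a group was alike within sampling noise. A count of 0 allows up to 3 counts (0.0983 to 0.180 CPM), counting error only. Named pathway genes were, per list and tissue, up to 3 rises and 3 falls among called genes at 5 CPM or more, or with no call the 2 with the smallest p. Promoter coordinates are on GRCm38.p6 and were joined to the tables by symbol only. A gene close to Cat in profile is not reported here. The members and lists were chosen with earlier results of these data known.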

Additional observations from a re-analysis of the deposited data

Results flagged for a closer look

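In groups of 5 livers, a library was looked for whose gap to the nearest of the others exceeded 0.71 of the group's range. Of 50 groups examined, for the members and the named pathway genes, 10 passed, where chance gives about 2.5, and 8 of them were halofuginone liver 1.

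Among the members this library stood at 253 CPM for Gclc, against 90.8 CPM in the next highest halofuginone liver, and at 177 CPM for Gclm, against 129 CPM. Among the pathway genes it was the highest of its group for Idh1 (246 CPM, next 137), Msrb1 (139 CPM, next 72.4), Gsta4 (19.4 CPM, next 5.67) and Gsta2 (4.07 CPM, next 1.16). It was the lowest of its group for Slc3a2 (38.7 CPM, next 87.3) and Btrc (8.54 CPM, next 13.5).

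The other flags were in vehicle livers. Txnrd1 reached 162 CPM in vehicle liver 3, against 135 CPM in the next, and Gsta2 reached 16.6 CPM in vehicle liver 4, against 6.81 CPM in the next.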

How the results depend on the processing

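The liver counts depended on single libraries. Leaving out 1 liver moved the number of called genes from 2850 to between 1275 and 5312, the called members from 2 to between 0 and 7 and the called pathway genes from 26 to between 15 and 50, with the highest of each without halofuginone liver 1 and the lowest gene counts without halofuginone liver 3. Cat was called in 11 of 18 liver alternatives and Gclc in 9, and every loss came from leaving out a library. Of the pathway genes, Gpx1, Gss, Gsta2, Idh1, Msra, Sesn2 and Slc3a2 were called in all 18, Msrb1 and Gsta4 in 16, Taldo1 in 15, Gsta3 in 11, Ugt2b35 in 10 and Htatip2 in 9. limma on FPKM called 18 pathway genes lower and 7 higher, where 777 and 2050 of all 9947 genes were. In fat, 0 genes were called by edgeR, 1 with no filter on low counts, 17 by limma on FPKM, 334 in 1 fit of all libraries and 723 by DESeq2; leaving out a library gave 0 to 1, the 1 without vehicle 3. Called fat pathway genes numbered 7 in 1 fit of all libraries and 17 by DESeq2, which also called 1 member. In the difference between tissues, leaving out 1 library gave 34 to 1053 called genes (141 with all) and 0 to 2 members.

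Small fold changes changed sign. In liver, library size alone gave 0.13 for Nfe2l2, 0.069 for Nqo1 and 0.072 for Txnrd1, and limma on FPKM gave 0.13, 0.062 and 0.071 for these and 0.00012 for Keap1. With 1 liver left out, Nfe2l2 ran from -0.099 to 0.024 and Nqo1 from -0.23 to 0.15. In fat, limma on FPKM gave 0.039 for Gclc, and leaving out 1 library gave -0.30 to 0.34 for Gclc, -0.15 to 0.58 for Gsr, -0.015 to 0.30 for Nfe2l2, -1.38 to 0.16 for Gclm, -0.77 to 0.23 for Txnrd1 and -0.044 to 0.20 for Keap1. In the difference between tissues it gave -1.10 to 0.39 for Gclm and -0.68 to 0.28 for Txnrd1. The causes were not tested, beyond the fewer samples that leaving out a library itself brings.

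Libraries of the same number had an r of -0.18 to 0.10 over the 5 liver pairs and -0.59 to 0.16 over the 3 fat pairs. Pairs of other numbers ran from -0.16 to 0.20 in liver and from -0.42 to 0.52 in fat. No sign was seen that the numbers pair vehicle with halofuginone libraries within a tissue. With so few libraries, centred within their group, these values cannot exclude a pairing, and liver was not set against fat. With the replicate block 1901 liver genes, 27 pathway genes and 2 members were called, and 0 genes in fat. Depth limits Nqo1 most, at 51 counts in its lowest library.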
